A study of Mus musculus with 8 samples.

Results

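The colon epithelium of mice lacking Rora in the intestine was compared with and without injury by dextran sulfate sodium (DSS). The comparison used 4 of the 8 RNA-sequencing libraries of the study, namely the 2 from DSS-treated and the 2 from untreated RORaΔIEC mice, chosen by genotype and treatment as labelled. RORaΔIEC is an intestine-specific Rora knock-out, called KO here, and the control RORaf/f carries floxed Rora alleles and is called WT. Both genotypes were C57BL/6. The DSS groups drank 2% (w/v) DSS for 5 days and then plain water for 3 days, and the untreated groups were given none. The cells were shaken off washed pieces of distal colon, and the protocol describes no sorting of the released cells. The age and sex of the mice and the driver of the deletion are not given in the sources used here. Nothing in the labels says that the 2 libraries of a group came from separate mice, so every p-value measures the spread between these libraries, which may be technical. The 2 WT groups, untreated and DSS-treated, served only to test where the KO response differed.

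DSS is a sulfated polysaccharide that damages the colon lining and exposes the tissue to gut bacteria. Neutrophils and monocytes then enter the mucosa, and the surviving epithelium proliferates, makes antimicrobial proteins and oxidants, and loses part of its absorptive and mucus-secreting programme while it reseals. Rora encodes RORα, a nuclear receptor that is known as an activator of the clock gene Arntl and of metabolic genes, and that has been linked to restraint of NF-kB signalling through Nfkbia.

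Library totals ran from 15971642 to 17062185 expected counts in the 4 KO libraries and from 15971642 to 20418466 over all 8. General epithelial markers summed to 23700 and 23900 CPM untreated and 21200 and 22300 CPM after DSS, and all 12 of them, Epcam, Cdh1 and Vil1 among them, had at least 1775 counts in every KO library. Rora itself had 4 and 3 counts in untreated KO, 8 and 5 in DSS-treated KO, 12 and 6 in untreated WT and 16 and 14 in DSS-treated WT, too few to check the deletion, and which part of the gene is deleted is not given in the sources used here. Principal component 1, with 60.2% of the variance, placed DSS-treated KO at 59.2 and 59.1, DSS-treated WT at 11.6 and 11.4, and untreated KO at -33.3 and -33.5. The share of counts from mitochondrial genes was 7.23% and 7.28% before DSS and 5.29% and 4.91% after it in KO.

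After DSS, the unsorted KO cell samples held many transcripts of neutrophils and inflammatory mediators that were near 0 before. These samples also held more of many oxidase and mitotic transcripts, and less of many colonocyte, mucus, detoxification and clock transcripts. Of 14991 genes tested, 3259 rose and 2972 fell at an adjusted p under 0.05 (edgeR quasi-likelihood test with Benjamini-Hochberg adjustment over all genes tested), which is 21.7% and 19.8% of the genes. Among them 738 rose and 587 fell at least 2-fold, and 252 rose and 52 fell at least 8-fold. The median log2 fold change over all tested genes was 0.001. Levels are CPM, counts scaled to library size with TMM factors, given as library 1 and library 2 of a group. A log2 fold change is DSS-treated against untreated KO with its standard error, and n is 2 libraries per group throughout. Genes are said to rise or fall only where the adjusted p is under 0.05. Counts of list members are to be read beside the 21.7% and 19.8% of all tested genes that rose and fell. The lists and their members were chosen with earlier results of these data known, so all such counts are descriptions.

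**Figure D1:**
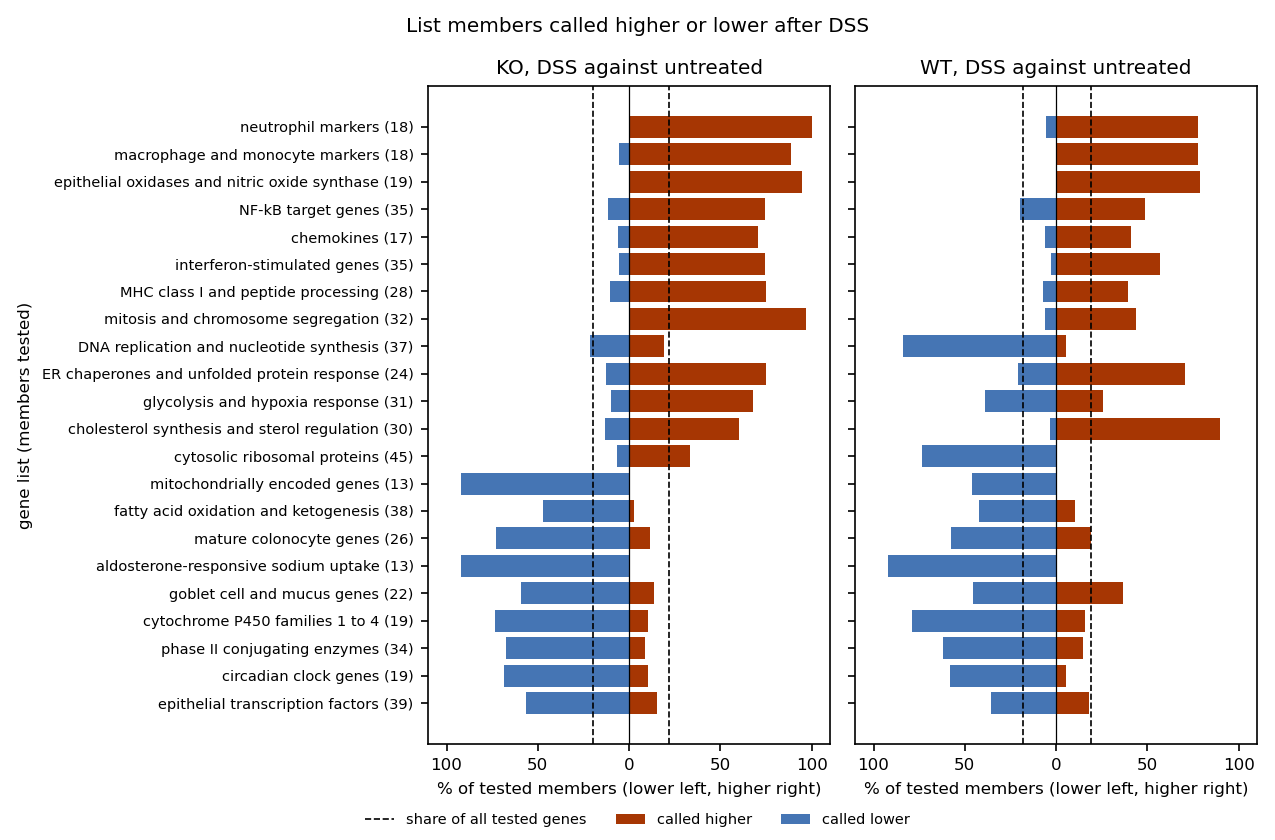
Bars give the percentage of the tested members of 22 gene lists that were called higher (to the right) or lower (to the left) after DSS in KO and in WT, with the number of members tested in brackets. Dashed lines mark the share of all tested genes called, 21.7% higher and 19.8% lower in KO and 18.9% higher and 18.3% lower in WT. All 18 tested neutrophil markers were called higher in KO, and 12 of 13 mitochondrially encoded genes were called lower.

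The largest rises included genes of neutrophils and activated myeloid cells. S100a8 (ENSMUSG00000056054.9, chromosome 3, 90668978 to 90670035), a subunit of the neutrophil protein calprotectin, had 0 counts in both untreated libraries and 52.9 and 58.3 CPM after DSS, at least 595-fold higher when 3 counts over the untreated group are taken as the floor. Its partner S100a9 (ENSMUSG00000056071.12, chromosome 3, 90692632 to 90695721) stood at 0.127 and 0.0612 CPM untreated and 86.8 and 93.7 CPM after DSS, a ratio of 965-fold with a 95% exact counting interval of 330 to 4680. The DSS-treated libraries lay far above the untreated ones for both subunits. Retnlg, Acod1, Ptgs2, Hp, Clec4e, Csf3r and Krt90 also had no count in either untreated KO library. After DSS, Acod1, the itaconate-producing enzyme of activated macrophages, reached 22.2 and 22.9 CPM (at least 241-fold higher). Ptgs2, the inducible cyclooxygenase, reached 21.6 and 19.9 CPM (at least 222-fold higher), and Hp, the haemoglobin scavenger haptoglobin, 16.2 and 20.8 CPM (at least 198-fold higher). Il1b (ENSMUSG00000027398.13, chromosome 2, 129364570 to 129371139), a pyrogenic cytokine, had 0.191 and 0.184 CPM untreated and 69 and 72.7 CPM after DSS, a log2 fold change of 8.51 ± 0.15 (adjusted p = 1.66e-14). Cxcl2 (ENSMUSG00000058427.10, chromosome 5, 90903871 to 90905938), a neutrophil-attracting chemokine, had 0.0635 and 0.122 CPM untreated and 33.7 and 35.7 CPM after DSS, a ratio of 371-fold with a 95% exact counting interval of 127 to 1800. Lrg1 (ENSMUSG00000037095.7, chromosome 17, 56119678 to 56122001), a secreted acute-phase glycoprotein, had 0.318 and 0.122 CPM untreated and 124 and 135 CPM after DSS and a log2 fold change of 9.17 ± 0.16 (adjusted p = 1.27e-14). In all, 61 tested genes had no count in untreated KO. Such genes passed the filter only through other libraries and could not fall, so the 57 of them called higher are a description. These intervals and floors treat reads as independent counts and leave out the spread between libraries. Where several reads come from the same molecule, the intervals are too narrow.

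Among the 12 largest rises with a RefSeq promoter, 2 held an NF-kB motif, and these are shown because many targets of NF-kB rose. The 150 bases before the transcription start are from RefSeq on GRCm38 (mm10), 5′ to 3′ on the strand of the gene, with motif matches in capitals. Cxcl2 lies at chr5:90903749-90903898 (+ strand) and Acod1 at chr14:103046862-103047011 (+ strand).
Cxcl2: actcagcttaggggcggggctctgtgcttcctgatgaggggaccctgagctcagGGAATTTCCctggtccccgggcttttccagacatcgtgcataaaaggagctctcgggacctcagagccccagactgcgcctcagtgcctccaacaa
Acod1: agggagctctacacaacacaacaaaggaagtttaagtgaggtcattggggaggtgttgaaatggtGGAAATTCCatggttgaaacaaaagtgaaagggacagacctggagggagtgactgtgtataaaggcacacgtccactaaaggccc
Acod1 holds the motif on the opposite strand. The match starts 96 bases before the start of Cxcl2 and 85 bases before that of Acod1. The motif searched was GGANTTTCC on both strands, over 300 bases from 250 before to 50 after the start. It occurred in 1.24% of the promoters of 9410 tested genes, in 3.67% of 436 promoters of genes that rose at least 2-fold in KO and in 1.69% of 355 of genes that fell at least 2-fold. The AP-1 motif TGANTCA occurred in 5.08%, 11.5% and 5.63% of the same sets, and the STAT motif TTCNNNGAA in 6.84%, 8.26% and 7.04%. A match describes the letters and does not show binding.

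Markers of leukocytes and other cells were counted next. Of 22 neutrophil markers, 18 passed the filter on low counts, 13 of them with at most 3 counts in untreated KO, so these 13 could pass only through other libraries, and the 18 rises are a description. The trio Camp, Elane and Mpo and the gene Trem3 did not pass the filter. The neutrophil list summed to 230 and 234 CPM untreated and 738 and 787 CPM after DSS, of which Cd177 (144 and 147 CPM untreated and 383 and 406 CPM after DSS) and Ly6g (85.7 and 85.8 CPM untreated and 103 and 112 CPM after DSS) made up most of the untreated sum. Mmp9, a gelatinase, and Trem1, an amplifier of myeloid activation, rose from 0.0318 to 11.8 CPM and from 0.0306 to 11 CPM. Among 18 macrophage and monocyte markers, 16 rose and 1 fell, and 2 of the 18 had at most 3 counts in untreated KO. Their summed level was 98.7 and 100 CPM untreated and 215 and 223 CPM after DSS. Cd14, the lipopolysaccharide co-receptor, had 39.7 and 42.3 CPM untreated and 106 and 112 CPM after DSS (1.41 ± 0.054, adjusted p = 5.93e-11), Lyz2 2.16 and 1.22 CPM untreated and 16.6 and 20.5 CPM after DSS (3.45 ± 0.19) and Csf1r 1.08 and 1.16 CPM untreated and 12.9 and 10.1 CPM after DSS (3.35 ± 0.25). T and NK cell markers stayed low, with 10 of 17 tested, 5 higher, none lower and a sum of 9.47 and 7.89 CPM untreated and 16.2 and 16 CPM after DSS. That count was 2 without untreated KO library 2 and 3 without untreated KO library 1 or DSS-treated KO library 2. B and plasma cell markers summed to 3.81 and 3.85 CPM untreated and 9.84 and 10.9 CPM after DSS. Dendritic cell markers summed to 0.762 and 0.979 CPM untreated and 7.94 and 7.27 CPM after DSS. Of the 9 dendritic cell markers 2 were tested and both rose, a description, since 1 had at most 3 counts in untreated KO. Endothelial markers summed to 9.85 and 10.7 CPM untreated and 9.9 and 8.42 CPM after DSS. Neuron and glia markers summed to 2.54 and 2.63 CPM untreated and 3.11 and 2.4 CPM after DSS. Fibroblast markers rose in 5 and fell in 1 of 9, with a sum of 28.2 and 29.1 CPM untreated and 46.8 and 42.3 CPM after DSS, and the rises numbered 3 without untreated KO library 1. Among them Fn1, the matrix protein fibronectin, rose from 1.93 to 12.6 CPM and Vim, an intermediate filament protein, from 5.42 to 12 CPM. Which cells these 2 transcripts came from was not tested. Mast cell and eosinophil markers summed to 51 and 53.5 CPM untreated and 43.3 and 40.8 CPM after DSS. Of the 4 tested, 2 rose and 1 fell. Smooth muscle markers summed to 61.4 and 54.9 CPM untreated and 44.5 and 39.9 CPM after DSS. Erythrocyte markers summed to 73.7 and 73.6 CPM untreated and 89.3 and 96.7 CPM after DSS. In such bulk samples more cells of a type and more RNA per cell cannot be told apart, and the part of leukocytes and fibroblasts in the rises given next was not tested.

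**Figure D2:**
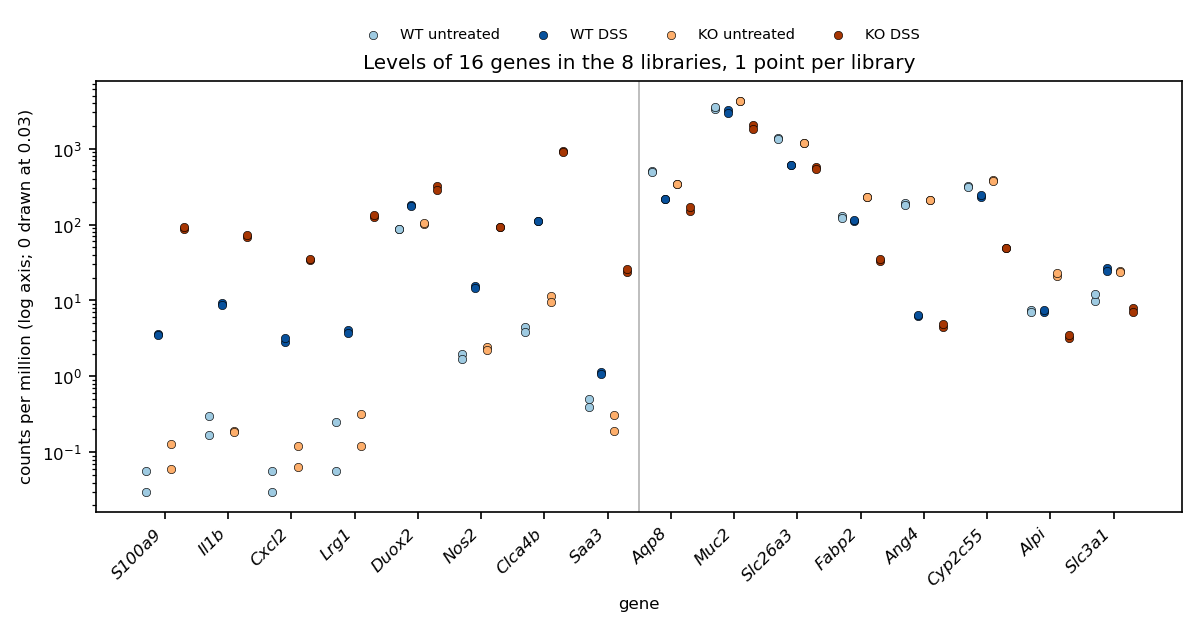
Points give CPM on a log axis in each of the 8 libraries for 8 genes that rose in KO (left of the line) and 8 that fell (right of the line). Libraries with 0 counts are drawn at 0.03. Il1b reached 69 and 72.7 CPM in DSS-treated KO from under 0.2 CPM untreated, and Ang4 fell from 213 and 212 to 4.49 and 4.86 CPM.

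The counts for inflammatory lists include genes that were almost absent before DSS and passed the filter only through other libraries, so they are descriptions. Of 35 tested NF-kB targets, 26 rose and 4 fell, against 21.7% and 19.8% of all tested genes, with a median log2 fold change of 1.16, and 6 of the 35 had at most 3 counts in untreated KO. Nos2, the inducible nitric oxide synthase, had 2.41 and 2.2 CPM untreated and 94 and 92.9 CPM after DSS (5.33 ± 0.091, adjusted p = 1.22e-14). Tnfaip2 had 0.254 and 0.184 CPM untreated and 15.2 and 13.6 CPM after DSS (6.0 ± 0.25). The inhibitor Nfkbia, which holds NF-kB in the cytoplasm and is itself a target, had 45.8 and 44.8 CPM untreated and 77 and 79.4 CPM after DSS (0.79 ± 0.05, adjusted p = 1.49e-08), and its DSS-treated libraries lay above the untreated ones. Among the NF-kB subunits Rel rose from 11.7 to 26.1 CPM, Relb fell from 54.8 to 46 CPM, and Rela (44.1 and 44.9 CPM on average, 0.026 ± 0.064) and Nfkb1 (78.3 and 79.3 CPM, 0.018 ± 0.054) did not pass. Of 33 chemokines 17 were tested, 5 of them with at most 3 counts in untreated KO, and 12 rose and 1 fell. Cxcl5, another neutrophil attractant, had 0.572 and 1.53 CPM untreated and 20.3 and 19.9 CPM after DSS (4.24 ± 0.25), Ccl9 5.15 and 5.57 CPM untreated and 21.6 and 23.2 CPM after DSS (2.06 ± 0.12), and Ccl4 a ratio of 335-fold with a 95% exact counting interval of 59.7 to 13300. Among the interleukin-1 family and its signalling genes, 11 of 20 rose and 2 fell. Il1a rose from 0.0624 to 8.87 CPM, the decoy receptor Il1r2 rose from 0.157 to 8.01 CPM, and Il18, an epithelial cytokine, had 66.7 and 66.5 CPM untreated and 107 and 114 CPM after DSS (0.73 ± 0.05). In the TNF superfamily 14 of 20 rose, a count that was 9 without untreated KO library 1, and Tnf itself had 0.318 and 0.551 CPM untreated and 6.44 and 7.84 CPM after DSS (4.01 ± 0.30) and its receptor Tnfrsf1b 30.9 and 31.2 CPM untreated and 85.7 and 84.7 CPM after DSS (1.46 ± 0.053).

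Signalling through IL-22, IL-6 and STAT3 drives epithelial repair and acute-phase output. Its list, which also holds genes of other cytokine pathways such as Il4ra, Il13ra1, Il17ra and Stat6, gave 16 rises and 5 falls among 29 genes. The feedback inhibitor Socs3 had 9.53 and 9.49 CPM untreated and 80.5 and 83.5 CPM after DSS (3.11 ± 0.086, adjusted p = 1.9e-12). Il4ra had 21.9 and 23.1 CPM untreated and 80.3 and 77.8 CPM after DSS (1.81 ± 0.06), the cytokine Osm rose from 0 counts to 7.71 and 7.27 CPM (at least 80.1-fold higher), and Socs2 fell from 31 to 13.3 CPM. Acute-phase genes rose in 10 of 12 cases and fell in 1, a description, since 3 of the 12 had at most 3 counts in untreated KO. Saa3, a serum amyloid made in inflamed tissue, had 0.191 and 0.306 CPM untreated and 23.6 and 25.6 CPM after DSS (6.58 ± 0.20) and complement C3 22.1 and 24.4 CPM untreated and 64 and 60.9 CPM after DSS (1.42 ± 0.067), whereas Saa1, which untreated colonocytes already express, fell from 586 to 413 CPM. Toll-like and NOD receptor genes rose in 12 of 19 and fell in 1, among them Pglyrp1, a peptidoglycan-binding protein (103 and 104 CPM untreated and 276 and 313 CPM after DSS, 1.51 ± 0.056), and Lbp, the lipopolysaccharide carrier (1.59 and 1.29 CPM untreated and 7.59 and 9.96 CPM after DSS, 2.61 ± 0.20).

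Secreted antimicrobial proteins split into rising and falling groups, 15 and 6 of 21, 3 of which had at most 3 counts in untreated KO. Their summed level was 11400 and 11400 CPM untreated and 11200 and 11600 CPM after DSS, so it stayed in the same range. The antibacterial lectins Reg3b and Reg3g had 1.02 and 1.78 CPM untreated and 114 and 124 CPM after DSS (6.4 ± 0.13) and 0.699 and 0.857 CPM untreated and 30 and 29.9 CPM after DSS (5.25 ± 0.13). Pla2g2a, a bactericidal phospholipase, had 4.7 and 5.51 CPM untreated and 36.2 and 40.3 CPM after DSS (2.9 ± 0.10). In the other direction went Ang4 (ENSMUSG00000060615.5, chromosome 14, 51763878 to 51773590), an antimicrobial ribonuclease of goblet and Paneth cells, with 213 and 212 CPM untreated and 4.49 and 4.86 CPM after DSS (-5.5 ± 0.074, adjusted p = 1.12e-15). This was the largest fall among the genes ranked, which excluded those with a mean under 5 CPM in KO. Reg3b and Reg3g, like Ang4, have close paralogs among which RSEM divides shared reads, so their split is uncertain.

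Oxidase genes rose almost without exception. Of 19 tested members of the list of epithelial oxidases and nitric oxide synthase, 18 rose and none fell, with a median log2 fold change of 1.55, and the exception was Duox1 (0.025 ± 0.52, 0.592 and 0.603 CPM on average). Duox2, which releases hydrogen peroxide at the apical surface, had 103 and 104 CPM untreated and 319 and 289 CPM after DSS (1.55 ± 0.052), and its maturation factor Duoxa2 12.6 and 11.6 CPM untreated and 69.4 and 75.3 CPM after DSS (2.58 ± 0.073). The superoxide-generating Nox1 had 32.1 and 28.6 CPM untreated and 82.4 and 77.3 CPM after DSS (1.4 ± 0.065). Every DSS-treated library was above both untreated ones for these genes. The phagocyte subunits Cybb and Ncf1, which neutrophils and macrophages carry, rose from 0.373 to 4.79 CPM and from 0.747 to 4.45 CPM.

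Interferon-stimulated genes rose in 26 of 35 cases and fell in 2, with a median of 0.56. Ifit2 had 5.15 and 4.04 CPM untreated and 23.5 and 22 CPM after DSS (2.31 ± 0.12), Oas2 2.1 and 2.33 CPM untreated and 9.09 and 10.5 CPM after DSS (2.15 ± 0.16) and Oasl2 43.5 and 46.3 CPM untreated and 73.4 and 72.4 CPM after DSS (0.70 ± 0.055). The interferon-inducible GTPases and their companions did not follow, with 4 higher and 7 lower of 16, against 21.7% and 19.8% of all tested genes. Gbp2 fell from 101 to 40.1 CPM (-1.33 ± 0.05) while Ido1, a tryptophan-degrading enzyme on the same list, rose from 3.8 to 33.8 CPM (3.15 ± 0.12). The 4 rises on that list numbered 2 without untreated KO library 1 or DSS-treated KO library 2. MHC class I and peptide-loading genes rose in 21 of 28 and fell in 3. H2-D1, a classical class I heavy chain, had 610 and 624 CPM untreated and 973 and 1010 CPM after DSS (0.69 ± 0.041) and B2m, the shared light chain, 293 and 289 CPM untreated and 449 and 488 CPM after DSS (0.69 ± 0.047). MHC class II and co-stimulatory genes fell in 7 and rose in 4 of 14, against 19.8% and 21.7% of all tested genes. Of the 14, 3 had at most 3 counts in untreated KO and passed only through other libraries, so the rises are a description. Without untreated KO library 1 or DSS-treated KO library 2 the rises numbered 2. The co-stimulatory Cd86 rose from 0.0306 to 1.01 CPM, and the class II chain H2-Eb1 rose from 14 to 18.2 CPM, a call lost without untreated KO library 1 (edgeR adjusted p = 0.0968) or DSS-treated KO library 2 (0.11). The falls included H2-Aa from 30.8 to 21 CPM, the invariant chain Cd74 from 83.8 to 64.1 CPM and the master regulator Ciita from 7.57 to 3.56 CPM. Reads of near-identical class I and GTPase genes may be divided unevenly between paralogs.

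Mitotic genes rose almost without exception. Of 32 genes of mitosis and chromosome segregation, 31 rose and none fell, with a median log2 fold change of 0.83. Ccnb1, the mitotic cyclin, had 24.4 and 24.5 CPM untreated and 60.1 and 58.7 CPM after DSS (1.28 ± 0.063, adjusted p = 1.01e-09), Ccna2 49.6 and 52.2 CPM untreated and 115 and 105 CPM after DSS (1.11 ± 0.056) and the centromeric histone Cenpa 24.5 and 26.9 CPM untreated and 54.6 and 55.9 CPM after DSS (1.1 ± 0.066). Pttg1 was the exception (21.1 and 18.9 CPM on average, -0.16 ± 0.087). DNA replication and nucleotide synthesis genes moved both ways, 7 higher and 8 lower of 37, near the 21.7% and 19.8% of all tested genes, with a median of -0.058. E2f2 and the ribonucleotide reductase subunit Rrm1 rose from 16.1 to 43.8 CPM and from 68.5 to 96.6 CPM, while Uhrf1 and the helicase subunit Mcm2 fell from 62.8 to 44.8 CPM and from 51.5 to 40 CPM. In WT the replication list gave 2 rises and 31 falls, and the difference between the genotypes' changes passed for 30 of the 37 genes, all in the direction of a higher change in KO. For the mitotic list it passed for 28 of 32. The helicase subunit Mcm5 illustrates the levels behind this, with 40.5 CPM in untreated WT, 23.6 in DSS-treated WT, 64.9 in KO before DSS and 67.3 after it.

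Endoplasmic reticulum chaperones rose in 18 of 24 cases and fell in 3. Hsp90b1 had 444 and 428 CPM untreated and 728 and 747 CPM after DSS (0.76 ± 0.039), Manf 63.4 and 65 CPM untreated and 93.4 and 104 CPM after DSS (0.62 ± 0.057) and the master chaperone Hspa5 438 and 442 CPM untreated and 581 and 603 CPM after DSS (0.43 ± 0.04), while Ddit3, the pro-apoptotic factor of the same response, fell from 13.1 to 8.84 CPM. Glycolysis and hypoxia genes rose in 21 of 31 and fell in 3. The lactate exporter Slc16a3 had 4.26 and 4.96 CPM untreated and 31.2 and 34.6 CPM after DSS (2.83 ± 0.10), the glycolytic regulator Pfkfb3 2.16 and 1.9 CPM untreated and 15 and 13.2 CPM after DSS (2.79 ± 0.16) and the enzymes Eno1 and Pgk1 564 and 566 CPM untreated and 974 and 1030 CPM after DSS (0.83 ± 0.041) and 456 and 453 CPM untreated and 756 and 814 CPM after DSS (0.79 ± 0.044). In WT the same list gave 8 rises and 12 falls, and for 20 members the KO change was higher by the difference test.

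After Ang4, the largest falls included genes of the absorptive surface. Prss23 (ENSMUSG00000039405.7, chromosome 7, 89507783 to 89527187), a serine protease, had 26.8 and 23.4 CPM untreated and 1.27 and 1.6 CPM after DSS (-4.12 ± 0.15) and Tppp3, a microtubule-binding protein, 123 and 126 CPM untreated and 9.26 and 10.2 CPM after DSS (-3.68 ± 0.064). Cyp2c55 (ENSMUSG00000025002.5, chromosome 19, 39007019 to 39042693), a colonic cytochrome P450, had 382 and 379 CPM untreated and 49.2 and 48.5 CPM after DSS (-2.96 ± 0.049, adjusted p = 1.13e-14). Fabp2 (ENSMUSG00000023057.5, chromosome 3, 122895072 to 122899506), the intestinal fatty-acid-binding protein, had 232 and 227 CPM untreated and 33.2 and 35.5 CPM after DSS (-2.74 ± 0.053, adjusted p = 3.99e-14). Alpi (ENSMUSG00000079440.2, chromosome 1, 87098002 to 87101606), the intestinal alkaline phosphatase that detoxifies lipopolysaccharide, had 21.2 and 22.8 CPM untreated and 3.16 and 3.49 CPM after DSS (-2.72 ± 0.11). H2-T3, the gut-restricted thymus leukaemia antigen, had 16.2 and 16.2 CPM untreated and 2.07 and 2.8 CPM after DSS (-2.73 ± 0.14), and Prkg2, the cGMP-dependent kinase downstream of guanylin, 9.72 and 9.43 CPM untreated and 1.55 and 1.6 CPM after DSS (-2.6 ± 0.19). For all of these both DSS-treated libraries lay below both untreated ones. Fndc5, Odf3b, Tppp, Ces1g, Sstr1, Vsig2 and Fosb completed the 15 largest falls, with -3.39 ± 0.22 for Fndc5 and -2.54 ± 0.077 for Fosb.

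The promoters of Alpi, H2-T3 and Slc3a1 carry a motif of the enterocyte factor HNF4 and are shown because these are the 3 of the 6 matched promoters, among the 8 genes whose change was most negative in KO relative to WT, that hold it. The 150 bases before the start are again from RefSeq on GRCm38 (mm10), from chr1:87101607-87101756 (- strand) for Alpi, chr17:36190152-36190301 (- strand) for H2-T3 and chr17:85028197-85028346 (+ strand) for Slc3a1, with motif matches in capitals.
Alpi: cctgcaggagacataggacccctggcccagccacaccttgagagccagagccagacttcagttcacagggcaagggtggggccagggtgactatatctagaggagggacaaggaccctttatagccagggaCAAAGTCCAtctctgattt
H2-T3: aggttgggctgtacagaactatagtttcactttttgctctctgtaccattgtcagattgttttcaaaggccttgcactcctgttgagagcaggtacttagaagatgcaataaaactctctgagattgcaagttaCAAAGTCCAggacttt
Slc3a1: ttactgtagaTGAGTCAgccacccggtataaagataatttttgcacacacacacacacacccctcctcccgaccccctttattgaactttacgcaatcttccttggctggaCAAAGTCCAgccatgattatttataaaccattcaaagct
The HNF4 match CAAAGTCCA starts 19, 16 and 39 bases before the respective starts, and the other capitals in Slc3a1 are an AP-1 match. Either of the HNF4 motifs searched, CAAAGTCCA and CAAAGGTCA on both strands, occurred in 0.797% of the 9410 promoters, in 1.97% of those of 2-fold falls and in 1.61% of those of 2-fold rises. Srp54a, among the 8 genes with the most positive difference, also held an HNF4 match, CAAAGGTCA, 114 bases before its start. The share among those 8 genes was not counted. Hnf4a itself had 906 and 923 CPM untreated and 798 and 742 CPM after DSS (-0.25 ± 0.042, adjusted p = 0.000268).

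Mature colonocyte genes fell in 19 of 26 cases and rose in 3, with a median log2 fold change of -0.82. Mep1a, a brush-border protease, had 321 and 318 CPM untreated and 108 and 112 CPM after DSS (-1.54 ± 0.042), Car1, a carbonic anhydrase of surface colonocytes, 2050 and 2060 CPM untreated and 849 and 910 CPM after DSS (-1.23 ± 0.04), and Dpep1, a membrane dipeptidase, 209 and 209 CPM untreated and 78.2 and 81.1 CPM after DSS (-1.39 ± 0.046). Ion, water and butyrate transport genes fell in 13 of 20 cases and rose in 4. The proton pump Atp12a had 510 and 530 CPM untreated and 134 and 135 CPM after DSS (-1.95 ± 0.044), the sodium-proton exchanger Slc9a3 311 and 296 CPM untreated and 113 and 103 CPM after DSS (-1.5 ± 0.052) and the chloride-bicarbonate exchanger Slc26a3 1200 and 1200 CPM untreated and 570 and 535 CPM after DSS (-1.12 ± 0.04). Clca4b went the other way, with 11.3 and 9.55 CPM untreated and 921 and 891 CPM after DSS (6.44 ± 0.067, adjusted p = 6.26e-17), while its neighbour Clca4a fell from 484 to 182 CPM and Clca3b rose from 306 to 756 CPM. These paralogs resemble each other, so the division of reads among them is uncertain. Genes of aldosterone-responsive sodium uptake fell in 12 of 13 cases and rose in none. The kinase Sgk1 had 137 and 138 CPM untreated and 65.4 and 67.2 CPM after DSS (-1.05 ± 0.045), the channel subunit Scnn1a 226 and 232 CPM untreated and 135 and 125 CPM after DSS (-0.81 ± 0.052) and the mineralocorticoid receptor Nr3c2 165 and 164 CPM untreated and 113 and 108 CPM after DSS (-0.58 ± 0.044). Guca2a, the ligand guanylin, had 1110 and 1100 CPM untreated and 364 and 428 CPM after DSS (-1.48 ± 0.059), while Gucy2c, its receptor, had 318 and 312 CPM untreated and 361 and 348 CPM after DSS (0.17 ± 0.041), a rise whose call was lost without untreated KO library 2 (adjusted p = 0.0593). Of the general epithelial markers, Krt8 fell from 7790 to 6400 CPM (-0.28 ± 0.036) and Epcam rose from 1620 to 1840 CPM (0.19 ± 0.039).

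Goblet cell genes gave 13 falls and 3 rises of 22, and their summed level was 19300 and 19300 CPM untreated and 9680 and 9780 CPM after DSS. Their median log2 fold change was only -0.19, and 6 of the 22 fell at least 2-fold. The sum leans on a few abundant members, given next. Muc2 (ENSMUSG00000025515.15, chromosome 7, 141690340 to 141754693), the gel-forming mucin, had 4280 and 4230 CPM untreated and 2020 and 1810 CPM after DSS (-1.15 ± 0.052, adjusted p = 3.39e-10). Clca1, a mucus-processing protease, had 4240 and 4240 CPM untreated and 774 and 766 CPM after DSS (-2.46 ± 0.036), Fcgbp, a mucus cross-linking protein, 4490 and 4500 CPM untreated and 1980 and 1890 CPM after DSS (-1.22 ± 0.045), and Zg16, which binds Gram-positive bacteria, 1790 and 1840 CPM untreated and 785 and 870 CPM after DSS (-1.14 ± 0.048). Agr2, the disulfide isomerase of mucin folding, rose from 953 to 1620 CPM (0.76 ± 0.048). The lineage factors Atoh1 and Spdef had 59.3 and 58.8 CPM untreated and 51.5 and 49.7 CPM after DSS (-0.22 ± 0.051) and 64.2 and 63.4 CPM untreated and 63.2 and 66 CPM after DSS (0.018 ± 0.052, not past the threshold). Mucin glycosylation enzymes rose in 12 and fell in 6 of 24, against 21.7% and 19.8% of all tested genes. Fut2, a fucosyltransferase, had 159 and 165 CPM untreated and 381 and 380 CPM after DSS (1.23 ± 0.042) and B3gnt6, which builds the core 3 structure of colonic mucin, 15.8 and 16.4 CPM untreated and 3.11 and 3.72 CPM after DSS (-2.24 ± 0.12).

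Tuft cell genes fell in 6 and rose in 2 of 12, at low levels, and a single rise was left without untreated KO library 1 or 2 or DSS-treated KO library 1. Alox5ap, a leukotriene synthesis protein that leukocytes also express, rose from 1.47 to 8.38 CPM. The falls included Dclk1 and Trpm5, with Dclk1 5.72 and 3.24 CPM untreated and 0.288 and 0.401 CPM after DSS (-3.67 ± 0.39) and Trpm5 5.15 and 4.28 CPM untreated and 0.575 and 0.629 CPM after DSS (-2.95 ± 0.27). Enteroendocrine genes rose in 11 of 20 and fell in 4. Tac1, the substance P precursor, had 6.35 and 4.59 CPM untreated and 22.7 and 24.7 CPM after DSS (2.12 ± 0.13), the granin Chgb 79.8 and 79 CPM untreated and 133 and 127 CPM after DSS (0.71 ± 0.046) and the endocrine progenitor factor Neurog3 0.953 and 1.16 CPM untreated and 4.6 and 4.52 CPM after DSS (2.1 ± 0.23). Crypt stem cell and Wnt-response genes gave 6 rises and 9 falls of 22, against 21.7% and 19.8% of all tested genes. Ccnd2, the cell-cycle entry cyclin, had 397 and 407 CPM untreated and 215 and 184 CPM after DSS (-1.01 ± 0.059), Axin2, a direct Wnt target, 36.9 and 37.2 CPM untreated and 24.5 and 22.5 CPM after DSS (-0.66 ± 0.075), and Lgr5, the stem cell receptor, 14.3 and 12.9 CPM untreated and 9.15 and 8.93 CPM after DSS (-0.59 ± 0.11).

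Genes of fetal-like and YAP-linked repair rose in 17 of 30 cases and fell in 7. Ly6a, the marker known as Sca-1, had 182 and 177 CPM untreated and 624 and 669 CPM after DSS (1.85 ± 0.045), Ly6c1 9.34 and 10 CPM untreated and 74.4 and 80.5 CPM after DSS (3.0 ± 0.083) and the urokinase receptor Plaur 5.97 and 5.45 CPM untreated and 19.2 and 20.9 CPM after DSS (1.81 ± 0.11). Clu, which marks revival stem cells, fell from 7.84 to 3.93 CPM (-1.0 ± 0.14), and so did Emp1 from 657 to 379 CPM. Matrix proteases and their inhibitors rose in 11 and fell in 4 of 16, a description, since 5 of the 16 had at most 3 counts in untreated KO and passed only through other libraries. The protease inhibitor Slpi had 13 and 13.8 CPM untreated and 42.9 and 49.2 CPM after DSS (1.78 ± 0.092), the plasminogen activator Plat 0.381 and 0.122 CPM untreated and 11.3 and 10.6 CPM after DSS (5.42 ± 0.28), and Timp3, an inhibitor of metalloproteases, 24.8 and 23.3 CPM untreated and 4.89 and 5.38 CPM after DSS (-2.22 ± 0.10). Integrins and laminins rose in 10 of 19 and fell in 3. Itgav rose from 25.3 to 46.1 CPM and Lama5 from 29.4 to 50.8 CPM. Tight junction genes showed 4 rises and 5 falls of 18, shares close to those of all genes.

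All of the mitochondrially encoded messages but mt-Atp6 fell. The falls numbered 12 of 13 with a median log2 fold change of -0.52. The list summed to 71500 and 72000 CPM untreated and 51000 and 47300 CPM after DSS, and mt-Co1 had 40200 and 40200 CPM untreated and 26900 and 24800 CPM after DSS (-0.64 ± 0.036). Nuclear genes of the respiratory chain did not fall as a group, with 6 higher and 3 lower of 38 and a median of -0.01, counts that depended on single libraries as given with the comparison of the 2 DSS-treated libraries. Fatty acid oxidation and ketogenesis genes fell in 18 of 38 and rose in 1. The receptor Ppara, which activates fatty acid oxidation, had 10.5 and 9.79 CPM untreated and 4.6 and 3.03 CPM after DSS (-1.41 ± 0.16). Cholesterol synthesis genes rose in 18 of 30 and fell in 4. Among the rises was Scd2, a fatty acid desaturase, from 1040 to 1620 CPM (0.65 ± 0.037). In WT 27 of the 30 genes rose and 1 fell, and the change was lower in KO for 19 and higher for 1 by the difference test. The list summed to 5170 and 5160 CPM in untreated KO and 6140 and 6050 CPM after DSS. In WT it summed to 3910 and 3970 CPM untreated and 5640 and 5610 CPM after DSS. The lower change in KO thus started from a higher untreated level, and the level after DSS was not lower than in WT.

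Detoxification genes fell broadly. Cytochrome P450 genes fell in 14 of 19 and rose in 2, with Cyp2c65 at 68.4 and 70.7 CPM untreated and 25.1 and 26.2 CPM after DSS (-1.44 ± 0.058) and the rising Cyp4f40 at 38.3 and 34 CPM untreated and 71.5 and 72.7 CPM after DSS (1.0 ± 0.06). Phase II conjugating enzymes fell in 23 of 34 and rose in 3. The carboxylesterase Ces2a had 132 and 132 CPM untreated and 52.2 and 47.8 CPM after DSS (-1.4 ± 0.056) and the sulfotransferase Sult1a1 238 and 244 CPM untreated and 126 and 132 CPM after DSS (-0.90 ± 0.049). Sulfide oxidation, aldehyde and peroxisomal genes fell in 14 of 21 and rose in none. The retinal dehydrogenase Aldh1a1 had 95.2 and 103 CPM untreated and 19.4 and 19.5 CPM after DSS (-2.35 ± 0.065) and the monoamine oxidase Maob 45.3 and 42.5 CPM untreated and 13.3 and 16 CPM after DSS (-1.58 ± 0.08). Members of the P450 and sulfotransferase families share sequence, so the division of reads among them is uncertain. Antioxidant genes of the Nrf2 programme rose in 14 and fell in 7 of 25, against 21.7% and 19.8% of all tested genes. Gpx2 (ENSMUSG00000042808.8, chromosome 12, 76792333 to 76795554), the gastrointestinal glutathione peroxidase, had 309 and 315 CPM untreated and 809 and 895 CPM after DSS (1.45 ± 0.048, adjusted p = 1.34e-11), and the cystine transporter Slc7a11 2.48 and 3.37 CPM untreated and 18.7 and 15.8 CPM after DSS (2.55 ± 0.15). In metal handling, 13 of 22 genes rose and 4 fell. The transferrin receptor Tfrc had 287 and 284 CPM untreated and 740 and 700 CPM after DSS (1.33 ± 0.041) and the metallothionein Mt2 24.6 and 20.7 CPM untreated and 87.7 and 94.8 CPM after DSS (2.01 ± 0.082).

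Clock genes, among which ROR receptors act as activators, fell in 13 of 19 cases and rose in 2, with a median of -0.60. Per2, a repressor of the clock, had 128 and 124 CPM untreated and 44.8 and 42 CPM after DSS (-1.54 ± 0.053, adjusted p = 1.97e-11), Cry2 57.9 and 58.9 CPM untreated and 23 and 23.6 CPM after DSS (-1.33 ± 0.063) and the output factor Dbp 102 and 94.4 CPM untreated and 36.1 and 41.9 CPM after DSS (-1.33 ± 0.067). Arntl, the activator that ROR receptors induce, rose from 10.5 to 13 CPM (0.31 ± 0.11, adjusted p = 0.034), a call that was lost without untreated KO library 2 (adjusted p = 0.242), without DSS-treated KO library 2 (0.189) and with upper-quartile scaling (0.0539). In WT 11 of these 19 clock genes fell and 1 rose, with a median of -0.297. The difference test found a lower change in KO for 7 of them and a higher change for 1. The time of day of collection is not given in the sources used here, so its part in these values was not tested. Rora itself had a log2 fold change of 0.75 ± 0.62 (adjusted p = 0.359), and Rorb did not pass the filter on low counts. Epithelial transcription factors fell in 22 of 39 and rose in 6. Klf4, a factor of terminal differentiation, had 858 and 862 CPM untreated and 566 and 546 CPM after DSS (-0.63 ± 0.039) and the vitamin D receptor Vdr 532 and 522 CPM untreated and 350 and 320 CPM after DSS (-0.66 ± 0.046). Immediate-early genes, which are sensitive to cell isolation, fell in 13 of 20 and rose in 2. Egr1 had 103 and 104 CPM untreated and 28.1 and 26.1 CPM after DSS (-1.94 ± 0.054). Jun had 199 and 198 CPM untreated and 62.3 and 68.3 CPM after DSS (-1.6 ± 0.05).

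Among genes of cell death 9 rose and 7 fell of 27, shares not far from the 21.7% and 19.8% of all tested genes. Ripk3, a kinase of necroptotic cell death, had 25.1 and 24.5 CPM untreated and 69.6 and 74.3 CPM after DSS (1.54 ± 0.062), and its substrate Mlkl 21.6 and 22.3 CPM untreated and 32 and 35.4 CPM after DSS (0.62 ± 0.076). The survival gene Mcl1 fell from 583 to 412 CPM (-0.50 ± 0.039). The gasdermins Gsdmc3 and Gsdmc2 fell, with Gsdmc3 at 402 and 391 CPM untreated and 195 and 188 CPM after DSS (-1.05 ± 0.042) and Gsdmc2 at 671 and 663 CPM untreated and 413 and 421 CPM after DSS (-0.68 ± 0.04), and Nlrp3, the inflammasome sensor, rose from 0 counts to 7.54 and 6.12 CPM (at least 73-fold higher).

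The response in KO was then set against that in WT, which shares no library with it. In WT 2834 genes rose and 2739 fell, 18.9% and 18.3% of those tested, with 522 and 279 at least 2-fold. Of the 3259 rises in KO, 1583 (48.6%, and 55.9% of the WT rises) were also called higher in WT, 146 were called lower and 1530 were not called. Of the 2972 falls, 1410 (47.4%, and 51.5% of the WT falls) were also called lower in WT. The test of the difference between the 2 changes passed for 1613 genes (10.8%) with a higher change in KO and 1595 (10.6%) with a lower change. Among the 738 genes that rose at least 2-fold in KO it found a larger rise in KO for 252 and in WT for 6, with median log2 fold changes of 2.19 in KO and 1.15 in WT. Among the 587 that fell at least 2-fold it found a larger fall in KO for 266 and in WT for 7, with medians of -1.53 and -0.627. Both sets were chosen by their change in KO, which by itself favours KO in such a comparison. A total of 146 genes rose in KO and fell in WT and 165 did the reverse, and the difference passed for all 311. Choosing genes called in opposite directions in the same fit nearly fixes that outcome, so it adds no support. Counts of the difference test depended on single libraries. They were 950 higher and 961 lower without untreated KO library 1, 999 and 1011 without untreated KO library 2, 972 and 956 without untreated WT library 1, and 961 and 965 without DSS-treated WT library 1.

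**Figure D3:**
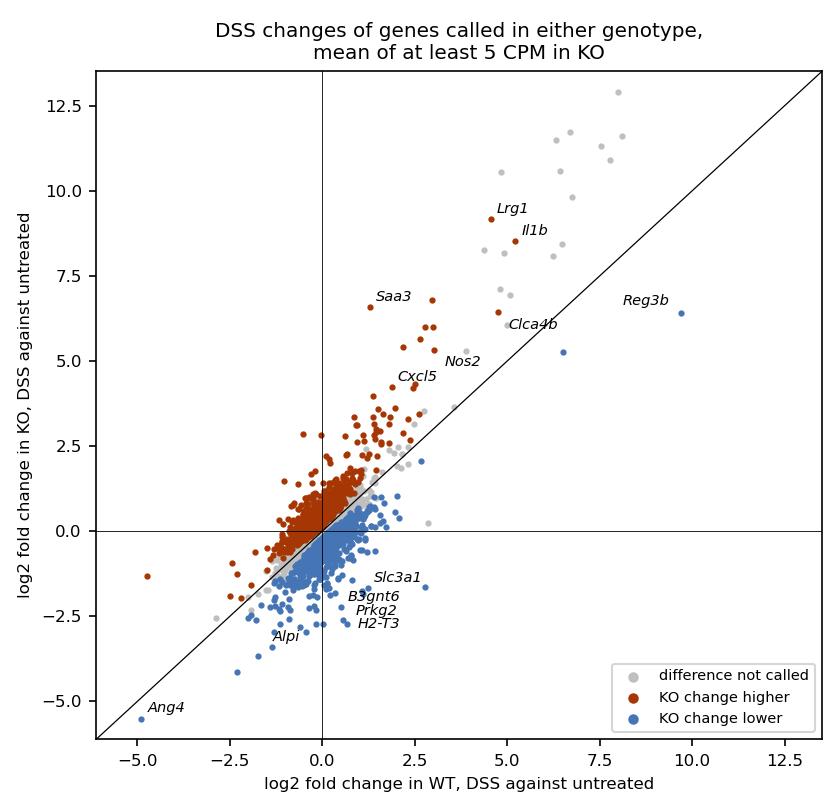
Each point is a gene called in either genotype with a mean of at least 5 CPM over the KO libraries. The horizontal axis is the log2 fold change in WT, the vertical axis that in KO, and the diagonal marks equal change. Fitted fold changes of genes with no count in a group depend on the prior count. Brown points had a higher and blue points a lower change in KO by the difference test, and genes such as Saa3 and Lrg1 lie far above the diagonal and H2-T3 and Slc3a1 below it.

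The largest differences in the direction of a higher change in KO included inflammatory genes. Saa3 had 0.446 CPM in untreated WT, 1.1 in DSS-treated WT, 0.248 in KO before DSS and 24.6 after it, a difference of 5.31 ± 0.54 on the log2 scale (adjusted p = 1.06e-05). Srgn, the proteoglycan of leukocyte granules, had 0.418 CPM in untreated WT, 3.36 in DSS-treated WT, 0.185 in KO before DSS and 21.5 after it (difference 3.82 ± 0.60), and Ak4, a mitochondrial adenylate kinase, 5.96 CPM in untreated WT, 10.8 in DSS-treated WT, 3.78 in KO before DSS and 38.6 after it (difference 2.5 ± 0.18). Nos2 had 1.84 CPM in untreated WT, 15.1 in DSS-treated WT, 2.31 in KO before DSS and 93.4 after it (difference 2.31 ± 0.22, adjusted p = 5.15e-06). Lrg1 and Il1b differed by 4.61 ± 0.99 and 3.3 ± 0.64, but each rests on a few counts in untreated WT. Without untreated WT library 1 the adjusted p was 0.317 for Lrg1 and 0.0952 for Il1b. Cxcl5 (2.36 ± 0.72) lost its call without untreated WT library 1 (adjusted p = 0.166), untreated WT library 2 (0.118), untreated KO library 1 (0.0753) or DSS-treated WT library 1 (0.0734). The second Srp54a entry is a near-identical copy and its value is uncertain. In the other direction, Reg3b rose in both genotypes but less in KO, with 0.203 CPM in untreated WT, 180 in DSS-treated WT, 1.4 in KO before DSS and 119 after it (difference -3.28 ± 0.51, adjusted p = 0.000475). Its untreated WT mean lies near the 0.15 and 0.168 CPM that 3 counts make there, so the size of this difference is uncertain. The other 7 fell in KO, and all but Alpi rose in WT. Slc3a1, a subunit of the cystine transporter, had 11 CPM in untreated WT, 25.8 in DSS-treated WT, 24 in KO before DSS and 7.52 after it (difference -2.91 ± 0.15), Abca12, a lipid transporter, 4.19 CPM in untreated WT, 9.05 in DSS-treated WT, 9.89 in KO before DSS and 2.73 after it (difference -2.97 ± 0.23), and Arhgap20 7.83 CPM in untreated WT, 16.4 in DSS-treated WT, 10.2 in KO before DSS and 2.98 after it (difference -2.84 ± 0.17). H2-T3 had 7.09 CPM in untreated WT, 11.2 in DSS-treated WT, 16.2 in KO before DSS and 2.44 after it (difference -3.4 ± 0.19), Prkg2 5.18 CPM in untreated WT, 7.66 in DSS-treated WT, 9.57 in KO before DSS and 1.58 after it (difference -3.17 ± 0.25), Alpi 7.29 CPM in untreated WT, 7.34 in DSS-treated WT, 22 in KO before DSS and 3.33 after it (difference -2.73 ± 0.17) and B3gnt6 10.6 CPM in untreated WT, 15.1 in DSS-treated WT, 16.1 in KO before DSS and 3.41 after it (difference -2.75 ± 0.16). In all 8 of these genes the mean of untreated KO was above that of untreated WT, so starting levels enter the difference as well as levels after DSS.

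Muc2 also fell in WT, but by less, with 3350 and 3500 CPM untreated and 3220 and 2970 CPM after DSS (-0.15 ± 0.051, adjusted p = 0.037), and the difference was -1.01 ± 0.073 (adjusted p = 4.02e-07). Ang4 fell in both, with 192 and 179 CPM untreated and 6.19 and 6.36 CPM after DSS in WT (-4.89 ± 0.071). Nfkbia, which rose in KO, fell in WT, with 56.9 and 57.8 CPM untreated and 49.6 and 48.6 CPM after DSS (-0.22 ± 0.051), and the difference was 1.01 ± 0.072 (adjusted p = 3.45e-07). Fabp2 had 128 and 123 CPM untreated and 110 and 115 CPM after DSS in WT (-0.16 ± 0.048), and the difference was -2.58 ± 0.072. For Slc26a3 and Aqp8 the log2 fold changes were -1.14 ± 0.04 and -1.21 ± 0.049 in WT against -1.12 ± 0.04 and -1.1 ± 0.05 in KO, with differences of 0.021 ± 0.056 (adjusted p = 0.832) and 0.11 ± 0.069 (adjusted p = 0.277). Without DSS-treated KO library 1 the difference for Aqp8 was 0.2 with an adjusted p of 0.00633.

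The 2 DSS-treated KO libraries differed from each other more than the untreated pair. Over tested genes the chi-square of their counts per degree of freedom was 5.09, against 1.3 in untreated KO, 2.22 in untreated WT and 1.84 in DSS-treated WT. The median absolute log2 difference between the 2 libraries was 0.0934, against 0.053 in untreated KO. All 45 ribosomal protein genes were higher in library 2, by a median of 0.182 on the log2 scale, and all 38 nuclear respiratory chain genes by 0.16, whereas over all tested genes of at least 5 CPM the median was 0.002. Calls for these lists therefore depended on the library. Ribosomal protein genes gave 15 rises and 3 falls with both libraries, 34 rises and 1 fall without library 1, 8 rises and 13 falls without library 2, and 6 rises and 1 fall without untreated KO library 1 and likewise without untreated KO library 2. Respiratory chain genes gave 6 rises and 3 falls, 14 rises without library 1, 3 rises and 11 falls without library 2, and 2 rises without untreated KO library 1 and likewise without untreated KO library 2. The single genes that differed most were AY036118 (8.28 and 60.1 CPM in DSS-treated KO, 34.1 and 24.3 untreated) and Eif3j2 (4.95 and 11.9 CPM, and 7.69 and 7.65 untreated). Neither passed the threshold (log2 fold changes of 0.232 and 0.136), and without DSS-treated KO library 2 both turned negative.

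**Figure D4:**
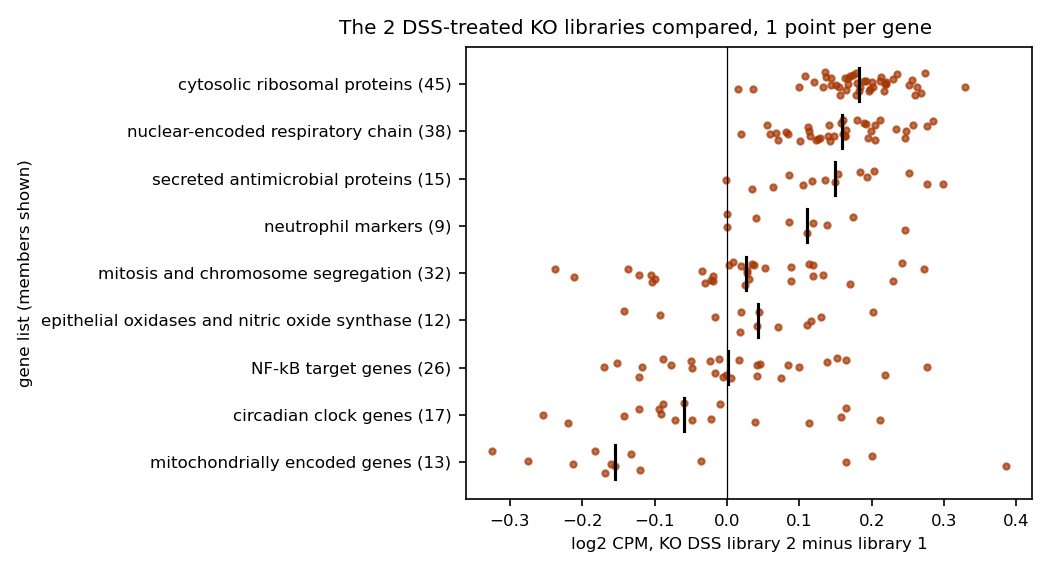
Each point is a gene with a mean of at least 5 CPM in KO, placed by its log2 CPM in DSS-treated KO library 2 minus that in library 1, for 9 lists with the number of members shown in brackets. Black bars are medians, at 0.182 for ribosomal proteins, 0.16 for the respiratory chain and -0.155 for mitochondrially encoded genes.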

How the data were processed

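RNA of distal colon epithelial cells was sequenced by the authors in 8 libraries. Reads were aligned with STAR 2.5.3a and quantified with RSEM 1.3.0 on mm10, per the submitters' processing notes, which also name DESeq2 1.18.1. The annotation release and strand setting are not given in the sources used here, so antisense and overlapping genes cannot be told apart. The authors deposited expected counts and TPM per gene. The deposited effective lengths were used in an alternative. Expected counts were rounded, and 14991 of 53379 genes passed edgeR's filterByExpr. Counts were scaled by TMM and tested with edgeR 4.0.16 (R 4.3.3) by the quasi-likelihood F test over all 8 libraries, with 4 residual degrees of freedom and Benjamini-Hochberg adjustment within each contrast at 0.05. Standard errors were approximated from each log2 fold change and its F statistic, and are too small for large changes from few counts. The contrasts were DSS-treated against untreated in KO, the same in WT, and the KO change minus the WT change.

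Depth was 15971642 to 20418466 expected counts per library. Genes without a count in a group were given a floor of 3 counts over the group. TPM was used only to rank abundant genes. The members and the 68 gene lists were chosen with earlier results of these data known. Named genes were the 15 largest rises and falls with a mean of at least 5 CPM in KO and groups that did not overlap, the 8 most abundant with a 2-fold change in each direction, up to 4 of the smallest p-values per list, the 8 largest positive and 8 largest negative differences between genotypes, Rora and the 5 genes that differed most between the DSS-treated KO libraries. A few genes chosen this way are not reported here. Further list members given are examples chosen after their values were seen. Alternatives were other scaling factors, no filter, effective-length offsets, DESeq2 1.42.0, a fit of the KO libraries alone, a robust fit, a replicate block and leaving out each library. The test was checked on simulated data.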

Additional observations from a re-analysis of the deposited data

Results flagged for a closer look

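The DSS change differed between the genotypes, by a test of the difference itself, for 1613 genes with a higher change in KO and 1595 with a lower change, of 14991 tested with edgeR. The differences of the named genes, on the log2 scale and as the KO change minus the WT change, were 5.31 for Saa3, 4.61 for Lrg1, 3.82 for Srgn, 3.30 for Il1b, 2.5 for Ak4, 2.36 for Cxcl5 and 2.31 for Nos2. They were -3.40 for H2-T3, -3.28 for Reg3b, -3.17 for Prkg2, -2.97 for Abca12, -2.91 for Slc3a1, -2.84 for Arhgap20, -2.75 for B3gnt6 and -2.73 for Alpi. The second Srp54a entry (ENSMUSG00000112449.1) differed by 3.42. Its level went from 33.1 and 30.4 CPM to 1.62 and 0.765 CPM with DSS in WT, and from 29.9 and 24.5 CPM to 14.9 and 6.92 CPM in KO. Near-identical copies of this gene share its reads, so the value is uncertain. Groups of 2 libraries were too small for a search for outlying libraries.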

How the results depend on the processing

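The KO counts stayed within 1.5 times of 3259 higher and 2972 lower under every alternative run, from 2324 and 1990 with DESeq2's Wald test to 3428 and 3137 with the crossed block described here, and from 2405 to 3268 higher and 2207 to 2978 lower when each library was left out. In WT, DESeq2's Wald test gave 1808 higher and 1601 lower. Leaving out each library gave 1893 to 3238 higher and 1775 to 3370 lower in WT. For the difference between genotypes, effective-length offsets gave 882 higher and 912 lower and DESeq2's Wald test 856 and 828. Leaving out each library gave 950 to 2382 higher and 956 to 2122 lower. Upper-quartile factors gave 2925 higher and 3251 lower in KO, and 8 rather than 15 ribosomal protein genes higher.

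The deviations of same-numbered libraries from their group means correlated at -0.011 between the KO groups and -0.271 between the WT groups, at 0.09 between the untreated groups and at 0.305 between the DSS-treated groups. Not every pair was positively correlated, so the numbers were not taken as pairs. With a replicate block the counts were 3216 and 2926 in KO, 2769 and 2680 in WT, and 1555 and 1530 for the difference. A crossed block, pairing libraries of unlike number and chosen after seeing the data, gave 3032 and 2934 in WT. Without DSS-treated KO library 2 the log2 fold change of Eif3j2 was -0.632 and that of AY036118 was -1.814, against 0.136 and 0.232 with it and 0.634 and 1.045 without library 1, and the cause was not tested. Cxcl5 lost its call for the difference under effective-length offsets (adjusted p = 0.0663) and DESeq2's Wald test (0.0607). With 2 libraries a group, small changes of low genes were not detectable at this depth.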
